A study of Mus musculus with 48 samples.

Results

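The difference between genotypes in the response of mouse nociceptors to nerve crush was examined, as an interaction: the log2 change with crush in neurons deleted for Tsc2 minus the log2 change with crush in control neurons. All 16 samples of the series entered it, each the sum of 3 aliquots of about 100 sorted cells, which is all 48 libraries. Nociceptors, the sensory neurons that report damaging stimuli, were sorted by the fluorescence of ZsGreen from the fourth lumbar dorsal root ganglion 3 days after the sciatic nerve had been crushed with forceps. The 4 groups held 4 biological replicates each, with 2 males and 2 females of 8 to 9 weeks on a mixed C57BL/6 and AJ background. Control mice were Tsc2 flox/+ and conditional knockout (cKO) mice Tsc2 flox/null, and all groups carried Nav1.8-Cre and the reporter Rosa26-ZsGreen. Crush samples came from the ganglion of the crushed side and uninjured samples from the opposite side, per the tissue labels, so that uninjured ganglia also came from mice with a crushed nerve. The extraction protocol given for all samples names only the side opposite the injury, and the tissue labels and titles were followed. Cre driven by Nav1.8 (Scn10a) acts in most nociceptors, so control neurons also lose 1 copy of Tsc2 and keep 1, while cKO neurons keep none. As the genotype is written, the null copy is missing in every cell of a cKO mouse, so the other cells of its ganglia have 1 working copy where those of a control mouse have both.

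Tsc2 encodes tuberin, which with hamartin holds back Rheb, the activator of the kinase complex mTORC1. With mTORC1 active, cells raise translation, amino acid uptake and lipid and nucleotide synthesis. A crushed sensory axon signals to its cell body, which switches on transcription factors such as Atf3 and Sox11, growth cone proteins, neuropeptides and secreted factors. A negative interaction says that crush multiplied a gene's level less in cKO than in control neurons. It does not say that the level after crush was lower.

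Gene counts came to 5159353 to 34228180 per library and to 36773198 to 63365268 per summed sample. Levels are given as CPM, counts scaled to library size, in the order of replicates 1 to 4. They are not per length, so levels of different genes are not compared. Tsc2 read 13.6, 24.8, 21.5 and 24.1 CPM in uninjured control, 8.72, 8.52, 7.29 and 10.9 CPM in uninjured cKO, 28.4, 23.5, 20.5 and 20.4 CPM in crush control and 8.18, 11.6, 5.83 and 7.58 CPM in crush cKO samples. Each cKO sample lay below each control sample of the same side. The interaction for Tsc2 was -0.24 ± 0.32 (edgeR adjusted p = 0.827) on the log2 scale, so a difference in the deletion between sides was not detectable. Exons of Tsc2 overlap Pkd1 on the other strand, and the library kit does not mark strand. Of 10 nociceptor markers, among them Scn10a and Prph, all were measured and none was called for the interaction (1.76% of all genes tested were). Their summed level was 10497 to 18973 CPM in uninjured control, 5733 to 8114 CPM in uninjured cKO, 8073 to 10188 CPM in crush control and 5373 to 6148 CPM in crush cKO samples. In such samples fewer cells of a type and less RNA per cell cannot be told apart. A sum follows its most abundant members. Over the 10 markers the median log2 change with deletion was -0.26 in uninjured and -0.43 in crushed neurons. With crush it was -0.69 in control and -0.19 in cKO neurons. The sums of nociceptor markers moved with both factors, and their part in the results below was not tested.

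Crush had a different effect in the genotypes for 335 of 19048 genes tested (1.76%), at an adjusted p under 0.05 (edgeR quasi-likelihood F test, Benjamini-Hochberg adjustment over all genes). Of these, 293 genes (1.54% of those tested) had a lower and 42 (0.22%) a higher crush effect in cKO neurons. At an unadjusted p under 0.05 there were 2541 genes. The median log2 difference of the 293 genes was -1.81, or -1.80 with the 17 genes that had no count in any uninjured control sample set at a floor of 3 counts over the group. The median of the 42 genes was 1.33 and that of all genes tested -0.02. At the threshold, Fscn1 with -1.67 ± 0.41 was just inside (edgeR adjusted p = 0.0494) and Rcc1 with -1.52 ± 0.37 just outside (edgeR adjusted p = 0.0502). The simple contrasts, which share their samples with the interaction, are given beside it as a description. Crush changed 19.7% of genes in control and 5.43% in cKO neurons, and deletion changed 20.7% in uninjured and 6.59% in crushed neurons. Of the 293 genes, 288 rose with crush in control neurons (11% of all genes tested did) and 287 with deletion in uninjured neurons (11.7%). With crush in cKO neurons 101 rose (2.57%) and 4 fell (2.86%), and with deletion in crushed neurons 48 rose (3.38%) and 9 fell (3.21%). The number of called genes rested in part on single samples and aliquots: it was 202, with 191 lower, without uninjured cKO replicate 1, 141 without aliquot A of every sample and 187 without aliquot C.

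**Figure D1:**
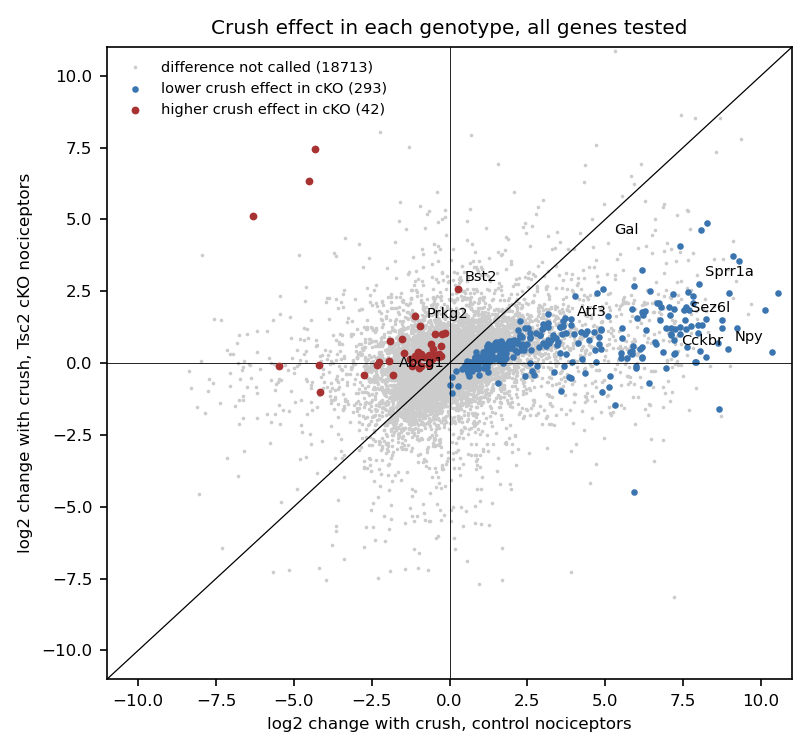
Log2 change with crush in control neurons (horizontal axis) against that in cKO neurons (vertical axis) for all genes tested, each point 1 gene. Points on the diagonal have the same change in both. The 293 genes with a lower effect lie below it and mostly right of 0, and the 42 with a higher effect lie above it.

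The genes with a lower crush effect had one common shape. In 251 of 293 genes (85.7%) the uninjured control group stood apart below the other 3 groups, meaning that its gap to the nearest group mean exceeded the range of the other 3 group means on a log2 scale. The same held for 28.5% of the 9742 genes with a negative difference, called or not. In 275 of the 293 genes all 4 uninjured control samples were below all other 12 samples, against 5.52% of all genes tested. A further 35 genes (11.9%) were graded, with no group standing apart, against 46.8% of the 9742 genes. In 4 genes (1.4%, against 7.35%) the uninjured cKO group stood apart above, and in 3 (1.02%, against 6.72%) the crush control group. Crush cKO was the highest group in 152 genes, crush control in 103, uninjured cKO in 38 and uninjured control in 0. Over all 19048 genes tested the same counts were 4953, 3808, 3779 and 6508. Medians of the group means of the 293 genes were 8.04 CPM in uninjured control, 35.8 CPM in uninjured cKO, 44.4 CPM in crush control and 57.2 CPM in crush cKO samples. Since the interaction chose these genes, their shape is a description. Of the 293 genes, 179 stayed called whichever of the 16 samples was left out.

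**Figure D2:**
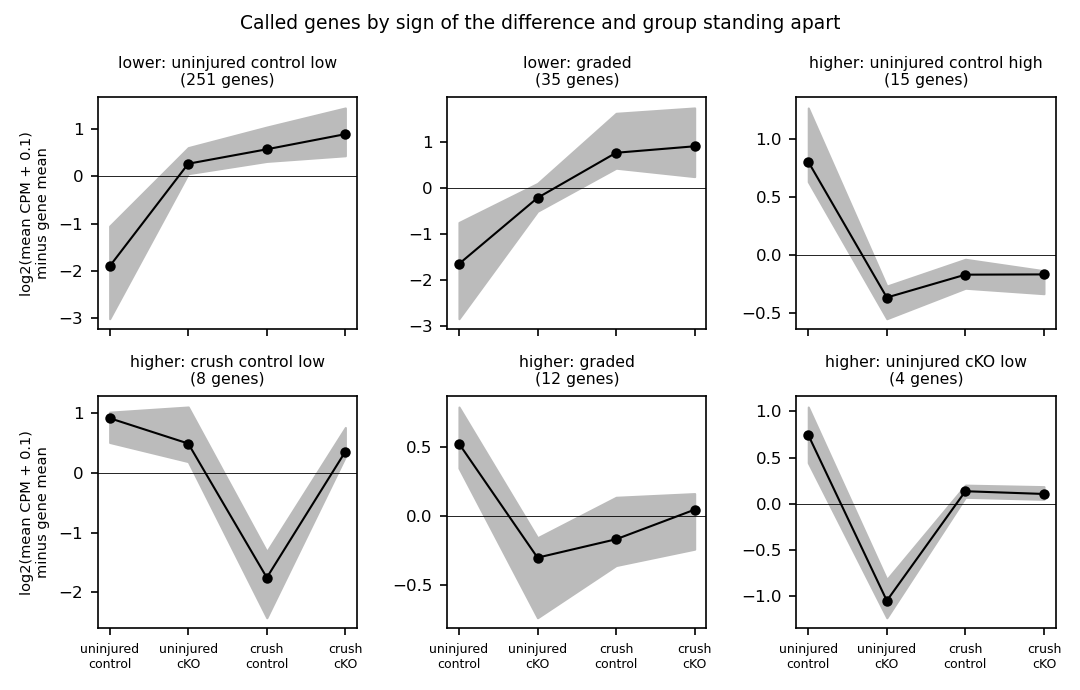
Median (line) and middle 50% (grey) of the group means of called genes, as log2(mean CPM + 0.1) minus the gene's own mean, by sign of the difference and by the group that stood apart. In the largest class of 251 genes uninjured control lies below and the other 3 groups lie close together.

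Cckbr, the gene of a receptor for cholecystokinin and gastrin (ENSMUSG00000030898; chromosome 7, 105425731 to 105470898, plus strand, mm10), had the smallest p of all. It read 0.343, 0.343, 0.452 and 0.442 CPM in uninjured control and 99.2, 87.4, 78.9 and 93.8 CPM in uninjured cKO samples. After crush it read 86.3, 40.7, 52.9 and 56.9 CPM in control and 107, 116, 129 and 98.4 CPM in cKO samples. Uninjured control was near 0, the other 3 groups were all far above it, and crush cKO was above crush control in each sample. The log2 change with crush was 7.22 ± 0.24 in control and 0.32 ± 0.17 in cKO neurons, a difference of -6.90 ± 0.29 (edgeR adjusted p = 1.33e-09). Sez6l, a membrane protein gene named for its relation to a seizure gene, read 1.3, 0.42, 0.633 and 0.703 CPM in uninjured control and 80.6, 60.9, 60.7 and 66.3 CPM in uninjured cKO samples. It read 184, 111, 145 and 139.6 CPM in crush control and 179, 184, 196 and 198 CPM in crush cKO samples. Here the groups followed each other upwards without overlap between uninjured control, uninjured cKO and the crushed groups. Its difference was -6.05 ± 0.33 (edgeR adjusted p = 3.03e-08).

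Other genes with a large difference and a level of at least 10 CPM in a group were low in uninjured control. Slc15a3, a lysosomal peptide and histidine transporter gene, had group means of 0.0422, 4.23, 13.5 and 12.1 CPM in uninjured control and cKO and then in crush control and cKO samples, and a difference of -6.74 ± 0.41 (edgeR adjusted p = 6.67e-08). It shares exon sequence with Tmem132a on the other strand. Fgf3, a fibroblast growth factor gene, went in the same order from 0.0334 over 1.95 and 17.8 to 10.4 CPM (difference -6.56 ± 0.66). Rin1, which encodes a Ras effector, had means of 0.0801, 7.19, 11.3 and 14.4 CPM (difference -6.12 ± 0.45). For Qrfpr, a receptor gene for an RFamide peptide, the level of 48.7 CPM in uninjured cKO was above the 28.4 CPM of crush control samples (difference -6.14 ± 0.82). The protein-coding gene 4930438A08Rik (-7.14 ± 0.85) and the long noncoding RNA gene Gm29374 (-5.99 ± 0.54) were also among the 10 most negative. Gm29374 (chromosome 1, 87142874 to 87146983, minus strand) lies downstream of Ecel1 (87147655 to 87156521) on the same strand. Whether its reads are separate from those of Ecel1 was not tested. Ifi202b, an interferon-inducible mouse gene, had 0.297, 49.6, 50.4 and 117 CPM (difference -6.15 ± 0.61). Several of these rest on few counts in uninjured control samples: 7 in all for 4930438A08Rik and Fgf3 and 9 for Slc15a3.

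Npy, the neuropeptide Y gene, had the most negative difference in this class, -8.46 ± 1.24 (edgeR adjusted p = 0.00112). It read 152, 7.57, 88.7 and 357 CPM in crush control and 14, 21.9, 8.84 and 6.56 CPM in crush cKO samples. Crush control samples were spread widely, with replicate 2 far below the other 3 and within the range of crush cKO. Uninjured samples had 0.223, 0.0954, 0.163 and 0.763 CPM in control and 9.18, 14.6, 4.18 and 8.81 CPM in cKO. The interaction for Npy was called without any 1 of the 16 samples but not by limma-voom. Npy was 1 of 9 among the 293 genes that fell with deletion in crushed neurons (-3.55 ± 0.79, edgeR adjusted p = 0.0126).

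**Figure D3:**
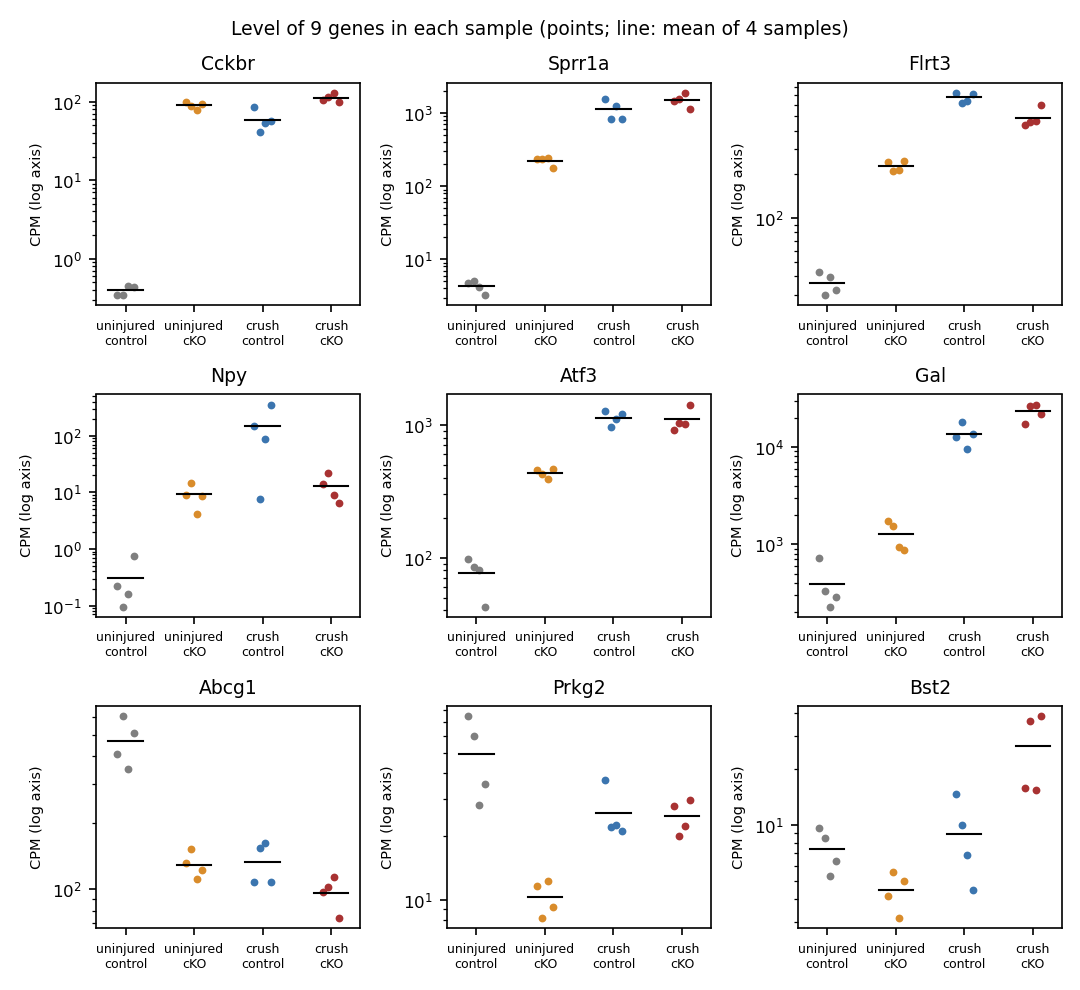
CPM on a log axis of 9 genes in each of the 16 samples (points) with the group mean (line). Cckbr, Sprr1a, Flrt3, Npy and Atf3 have a lower, Abcg1, Prkg2 and Bst2 a higher crush effect in cKO neurons, and the difference for Gal was not called.

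What the crushed cKO level would be without interaction depends on the scale. If the fold changes of crush and of deletion multiplied, crushed cKO samples would hold 13462 CPM of Cckbr, and if the changes in CPM added they would hold 149 CPM. The measured mean was 113 ± 13.1 CPM (SD, n = 4). For Flrt3 the same values were 4285, 868 and 488 ± 71.4 CPM, and for Atf3 6423, 1489 and 1095 ± 220.1 CPM. These levels were below both expectations. Sprr1a, whose protein is found in regenerating axons, measured 1498 ± 311 CPM, below the 57815 CPM of multiplied and above the 1338 CPM of added changes. Over the genes with a count in uninjured control samples, the median ratio of measured to multiplied expectation was 0.308. A ratio below 1 follows from choosing genes with a negative log2 difference, so it is a description. Over all 293 genes the ratio to added expectation had a median of 0.736. In 254 of the 293 genes the difference of CPM changes was negative too, and in 39 it was positive. Among all 19048 genes tested, the sign was the same for fold changes and CPM changes in 17307 and opposite in 1741. The same sign was thus less common among the 293 genes than among all genes tested.

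**Figure D4:**
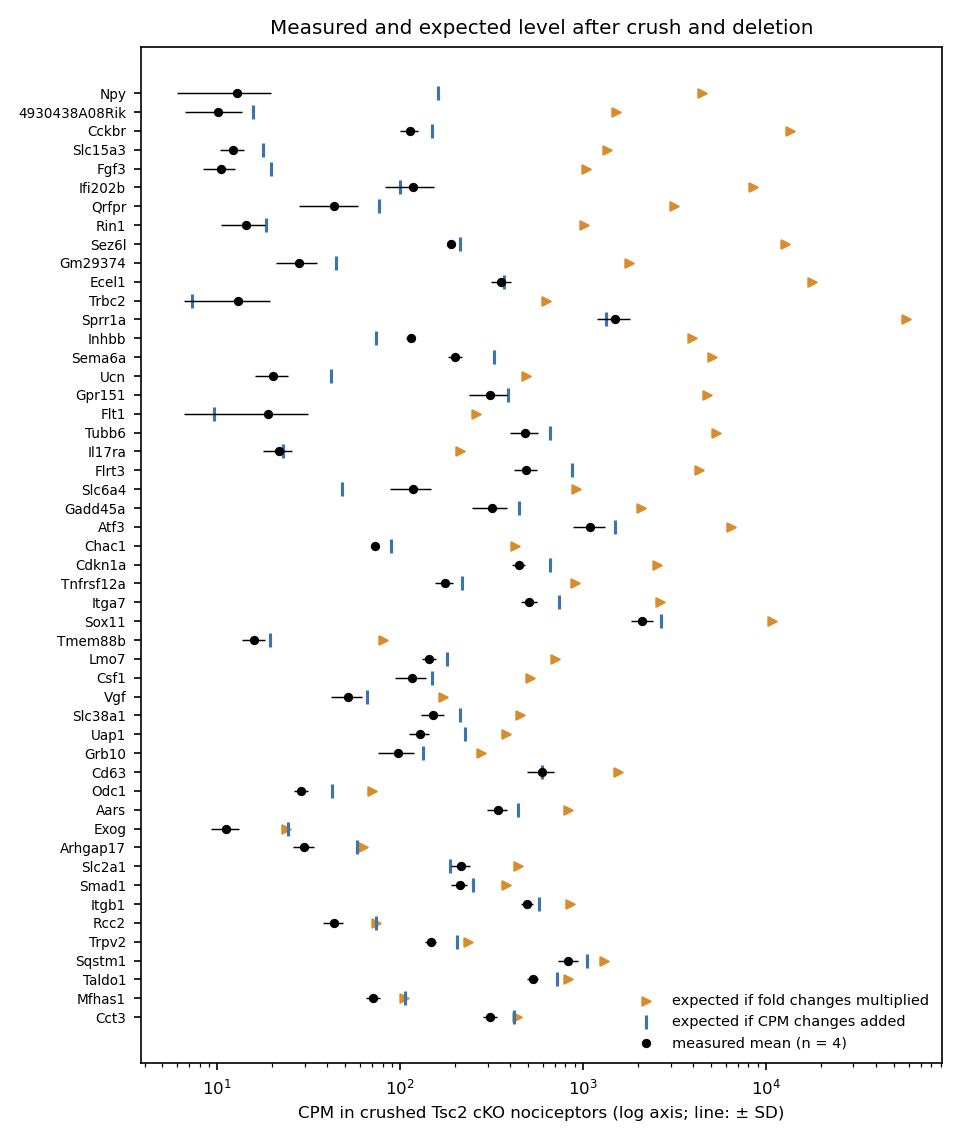
Mean CPM (± SD, n = 4) in crushed cKO samples on a log axis for the named genes with a lower crush effect and a group mean of at least 10 CPM, beside the levels expected if fold changes multiplied or if CPM changes added. Measured levels lie below the multiplied expectation in each gene, which follows from choosing genes with a negative log2 difference. Most lie below the added one too, while those of Inhbb, Slc6a4, Ifi202b, Trbc2, Sprr1a, Flt1 and Slc2a1 lie above it.

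Transcription factors of the injury response came first by role. Of 29 measured, 3 had a lower crush effect and 1, Fos, a higher one (13.8% called, against 1.76% of all genes tested). The median difference was -0.29. Atf3, a stress-induced leucine zipper factor, read 97.3, 84.8, 81.1 and 42.6 CPM in uninjured control and 456, 429, 389.9 and 462 CPM in uninjured cKO samples, and 1263, 956, 1112 and 1195 CPM in crush control and 918, 1038, 1007 and 1416 CPM in crush cKO samples. The crushed groups overlapped and lay above uninjured cKO, which lay above uninjured control. The difference was -2.55 ± 0.28 (edgeR adjusted p = 6.26e-05). Sox11, a transcription factor gene of the SRY-box family, had means of 156, 855, 1959.6 and 2107 CPM in the same order, with a difference of -2.35 ± 0.23 (edgeR adjusted p = 1.93e-05). Smad1, an effector of bone morphogenetic protein signals, differed by -0.84 ± 0.18 (edgeR adjusted p = 0.0204). Jun, the partner of Atf3 in AP-1 dimers, was not called, with means of 67.6, 99.8, 149 and 162 CPM and a difference of -0.45 ± 0.29 (edgeR adjusted p = 0.557), in a gene that overlaps the antisense transcript Junos.

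Promoters are shown for 5 genes on which the account turns, from RefSeq on GRCm38.p6 (mm10), each from 250 bases before to 50 after the gene's start, 5′ to 3′ on the gene's strand. Capitals mark AP-1 letters (TGACTCA), the cyclic AMP element (TGACGTCA) or the C/EBP-ATF element (TGATGCAA), each searched on both strands. The windows are chr3:92485832-92486131 (minus strand) for Sprr1a, chr1:191183284-191183583 (minus) for Atf3, chr2:119350992-119351291 (plus) for Chac1, chr5:31138846-31139145 (minus) for Ucn and chr7:105425481-105425780 (plus) for Cckbr.
Sprr1a: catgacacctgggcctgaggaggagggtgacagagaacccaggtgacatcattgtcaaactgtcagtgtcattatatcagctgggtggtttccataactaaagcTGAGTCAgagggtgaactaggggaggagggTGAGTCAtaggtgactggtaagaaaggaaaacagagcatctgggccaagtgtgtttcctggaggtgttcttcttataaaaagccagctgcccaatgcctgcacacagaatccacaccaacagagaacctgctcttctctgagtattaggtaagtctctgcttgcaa
Atf3: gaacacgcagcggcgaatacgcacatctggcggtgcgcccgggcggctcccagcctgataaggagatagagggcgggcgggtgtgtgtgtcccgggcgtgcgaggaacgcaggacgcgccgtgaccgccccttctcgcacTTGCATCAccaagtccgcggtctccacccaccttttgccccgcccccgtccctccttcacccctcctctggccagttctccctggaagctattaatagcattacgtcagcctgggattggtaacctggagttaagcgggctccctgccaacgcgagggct
Chac1: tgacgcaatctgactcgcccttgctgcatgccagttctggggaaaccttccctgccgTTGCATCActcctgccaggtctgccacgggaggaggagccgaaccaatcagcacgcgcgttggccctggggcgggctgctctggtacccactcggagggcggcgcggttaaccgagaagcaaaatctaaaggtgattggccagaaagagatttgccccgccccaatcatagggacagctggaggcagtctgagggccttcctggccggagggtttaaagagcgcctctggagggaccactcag
Ucn: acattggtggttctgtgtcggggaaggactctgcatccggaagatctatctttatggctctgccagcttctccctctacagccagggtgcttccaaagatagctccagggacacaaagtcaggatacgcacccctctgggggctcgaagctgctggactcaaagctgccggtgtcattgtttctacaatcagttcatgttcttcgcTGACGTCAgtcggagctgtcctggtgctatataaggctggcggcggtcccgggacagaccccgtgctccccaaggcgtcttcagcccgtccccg
Cckbr: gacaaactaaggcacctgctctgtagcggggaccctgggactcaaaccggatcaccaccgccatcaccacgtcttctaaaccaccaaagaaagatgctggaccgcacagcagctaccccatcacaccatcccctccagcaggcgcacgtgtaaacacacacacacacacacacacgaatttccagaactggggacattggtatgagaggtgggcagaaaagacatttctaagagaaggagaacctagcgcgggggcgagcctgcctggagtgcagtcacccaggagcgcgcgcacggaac
Sprr1a held the AP-1 letters at both of the marked places, Atf3 and Chac1 the C/EBP-ATF element, Ucn the cyclic AMP element, and Cckbr none of them. The table had a promoter for 211 of the 293 genes with a lower effect, 269 promoters in all. AP-1 letters were in 30 of these (11.2%), among them promoters of Nts, Plaur, Zyx, S100a11 and Srxn1. They were in 4.04% of promoters of genes tested and 5.2% of all promoters of that length in the table. The cyclic AMP element was in 3.72%, against 2.81% of promoters of genes tested and 1.79% of all. The C/EBP-ATF element was in 6 promoters (2.23%), against 0.628% and 0.895%. Of 38 promoters of genes with a higher effect, 0 held AP-1 letters and 2 each the other elements. A match describes letters and not a binding site, and promoters of a gene can overlap.

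Growth cone, tubulin and axon proteins held the largest group. Of 38 measured genes 12 had a lower and 1 a higher crush effect (34.2% called, against 1.76% of all genes tested). The median difference was -0.41. Sprr1a read 4.8, 5.02, 4.2 and 3.23 CPM in uninjured control, 233, 235, 247 and 177 CPM in uninjured cKO, 1576, 830.3, 1236 and 836 CPM in crush control and 1442, 1559, 1873 and 1120.0 CPM in crush cKO samples. The crushed groups overlapped, and each uninjured group lay apart from all others. Flrt3, an adhesion protein that binds Unc5 receptors and FGF receptors, read 43.2, 29.7, 39.4 and 32.1 CPM in uninjured control, 243, 213, 215 and 247 CPM in uninjured cKO, 722, 622, 640.4 and 713 CPM in crush control and 439, 458, 462 and 594 CPM in crush cKO samples. It was lower in each crushed cKO than in each crushed control sample (-0.47 ± 0.12, edgeR adjusted p = 0.0318). The tubulin genes of the list went in both directions. The beta-tubulin gene Tubb6 differed by -3.46 ± 0.40 (edgeR adjusted p = 0.000101) and the alpha-tubulin gene Tuba1c by -2.75 ± 0.35 (edgeR adjusted p = 0.000266). Tubb2b (-0.99 ± 0.21) and Tubb2a (-0.49 ± 0.11) had smaller differences and are close in sequence, so that their reads may be shared. Tuba4a had a higher crush effect (0.82 ± 0.19 (edgeR adjusted p = 0.0403)). Stmn4, a microtubule-destabilizing stathmin gene (-2.34 ± 0.36), Sdc1, a cell surface proteoglycan gene (-3.68 ± 0.49), Anxa1, an annexin gene (-3.35 ± 0.52), and Hspb1, a small heat shock protein gene (-1.37 ± 0.25), had lower effects. So did Crmp1, a mediator of semaphorin signals (-0.79 ± 0.16), and Lmo7 (-2.28 ± 0.27), which encodes a LIM-domain protein. Gap43, a growth cone protein gene, had 1345, 1966, 3720.1 and 3697 CPM, and its difference of -0.56 ± 0.27 was not called (edgeR adjusted p = 0.383).

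Neuropeptides were counted in 2 lists, whose difference was not tested. Of 12 measured injury-induced peptides and granins 4 (33.3%) had a lower crush effect, with a median difference of -0.77. Of 14 peptides that nociceptors make constitutively 0 were called (median 0.47). Among all genes tested 1.76% were called, so 0 of 14 is near that share. Ucn, which encodes urocortin of the corticotropin-releasing family, read 0.0515, 0.172, 0.307 and 0.12 CPM in uninjured control and 23.1, 82.5, 40.1 and 15.1 CPM in uninjured cKO samples. After crush it read 1.18, 2.18, 0.964 and 3.54 CPM in control and 22.3, 18.5, 24.9 and 15.3 CPM in cKO samples. Both cKO groups were above both control groups. The difference was -4.56 ± 0.79 (edgeR adjusted p = 0.00484). Nts, the neurotensin gene, had means of 72.7, 2011, 856 and 2546 CPM (difference -3.22 ± 0.70 (edgeR adjusted p = 0.0264)). Vgf, a granin-like precursor gene, had 7.01, 25, 48.1 and 51.7 CPM (difference -1.73 ± 0.37 (edgeR adjusted p = 0.0217)). Gal, the galanin gene, read 729.6, 335, 228 and 285 CPM in uninjured control, 1745, 1529, 945 and 871 CPM in uninjured cKO, 12741, 17968, 9583 and 13768 CPM in crush control and 17419.8, 26570.2, 27291 and 21717 CPM in crush cKO samples. Both crushed groups lay far above both uninjured ones. Its difference was -0.91 ± 0.45 (edgeR adjusted p = 0.405), which the spread does not tell from 0.

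The lists of secreted factors and of receptors had 2 called members each, where 1.76% of all genes tested were called. Of 21 measured cytokine and growth factor genes, Inhbb and Csf1 (9.52%) had a lower effect. Inhbb, the gene of an activin subunit, read 0.257, 0.248, 0.362 and 0.462 CPM in uninjured control, 30.6, 22.3, 31 and 34.2 CPM in uninjured cKO, 49.1, 30.3, 53.6 and 44.7 CPM in crush control and 111, 124, 114 and 109 CPM in crush cKO samples. Crush cKO was above all other samples and uninjured control below them, uninjured cKO and crush control overlapped, and the log2 difference was negative, -5.11 ± 0.29 (edgeR adjusted p = 3.37e-08). Csf1, the macrophage colony-stimulating factor gene, had means of 9.07, 39.3, 118 and 116 CPM (difference -2.14 ± 0.34 (edgeR adjusted p = 0.00233)). Of 36 peptide and modulatory receptors, Cckbr and Gpr151 (5.56%) were called. Gpr151, an orphan receptor gene, had 3.86, 54.4, 336 and 309 CPM (difference -3.94 ± 0.40 (edgeR adjusted p = 2.95e-05)). Of 34 cytokine and trophic factor receptors 2 (5.88%) were called, Il17ra, the interleukin-17 receptor gene (-3.28 ± 0.31 (edgeR adjusted p = 1.49e-05)), and Tnfrsf12a, the TWEAK receptor gene (-2.38 ± 0.33 (edgeR adjusted p = 0.000558)).

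Axon guidance and adhesion genes had 3 of 40 (7.5%) with a lower effect, against 1.54% of all genes tested. Their median difference was 0.03. Sema6a, a membrane-bound semaphorin gene, had means of 4.77, 108, 224 and 199.7 CPM (difference -4.67 ± 0.32 (edgeR adjusted p = 3.05e-07)). The laminin receptor subunit gene Itga7 differed by -2.37 ± 0.24 (edgeR adjusted p = 2.13e-05) and its partner Itgb1 by -0.78 ± 0.18 (edgeR adjusted p = 0.0357). Itga7 shares exon sequence with Mettl7b on the other strand.

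Lists of excitability genes held 0 or 1 called member each, where 1.76% of all genes tested were called. Of 23 sodium and calcium channels edgeR called 0 at the adjusted threshold. Crush lowered 9 of them in control neurons, where it lowered 8.68% of all genes, and 3 in cKO neurons, where it lowered 2.86%. Of 43 potassium and HCN channels 1 (2.33%) was called, Kcnk16, a background potassium channel gene of low level (0.0234, 1.19, 5.54 and 2.9 CPM, difference -6.47 ± 0.55). Of 22 transduction channels 1 (4.55%) was called, Trpv2, a cation channel gene of the vanilloid family, with -0.69 ± 0.14 (edgeR adjusted p = 0.0194). None of 17 itch and non-peptidergic markers and none of 30 presynaptic release genes was called by edgeR at the adjusted threshold.

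The list of the amino acid response was made of the transcription factor gene Atf4 and genes that ATF4 acts on. Of 47 measured genes 6 (12.8%) had a lower effect, against 1.54% of all genes tested, and 0 a higher one (median -0.40). Crush raised 32 of them in control neurons, where 11% of all genes rose, and 9 in cKO neurons, where 2.57% rose. Deletion raised 27 in uninjured neurons, where 11.7% of all genes rose, and 3 in crushed neurons, where 3.38% rose. Atf4 itself had 87.7, 199, 257 and 291 CPM (difference -1.0 ± 0.16, edgeR adjusted p = 0.00215). Chac1, which degrades glutathione, read 5.85, 3.97, 7.13 and 3.61 CPM in uninjured control, 44, 38, 42.2 and 35.3 CPM in uninjured cKO, 66, 26.9, 61.9 and 63.8 CPM in crush control and 69.1, 72.8, 73.1 and 76 CPM in crush cKO samples. Uninjured control was lowest, and crush control replicate 2 was lower than the other 3 of its group. Slc38a1, a glutamine transporter gene, had 33.5, 134, 112 and 151 CPM (difference -1.58 ± 0.21 (edgeR adjusted p = 0.000474)). Slc7a5, a transporter gene for large neutral amino acids (-1.40 ± 0.25), the folate enzyme gene Mthfd2 (-0.91 ± 0.19) and the alanyl-tRNA synthetase gene Aars (-1.28 ± 0.16) made up the rest. Aars overlaps Exosc6 on the same strand.

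In other pathways that mTORC1 or injury act on, between 0 and 3 genes of a list were called, where 1.76% of all genes tested were. Of 34 members of the TSC, mTORC1 and insulin pathway, 1 (2.94%) was called, Grb10, an adaptor that restrains insulin receptor signals (20.5, 90.9, 62 and 97.2 CPM, difference -1.50 ± 0.29 (edgeR adjusted p = 0.012)). Of 28 glycolysis and pentose phosphate genes 2 (7.14%) were called. The glucose transporter gene Slc2a1 (-1.04 ± 0.20 (edgeR adjusted p = 0.0112)) and the transaldolase gene Taldo1 (-0.64 ± 0.12 (edgeR adjusted p = 0.00683)) had a lower effect. Slc2a1 was highest in crush cKO samples (216 ± 26.1 CPM) against 115 ± 23.3 CPM in crush control samples (SD, n = 4). Of 39 lysosome, cathepsin and proton pump genes, Cd63, a tetraspanin gene of late endosomes (-1.39 ± 0.21), and Sqstm1, an autophagy receptor gene (-0.64 ± 0.16), were called (5.13%). In this list 24 genes rose with deletion in uninjured neurons, where 11.7% of all genes did, and 24 in crushed neurons, where 3.38% did. Reads of Cd63 may be shared with its processed copy Cd63-ps, which was also called. None of 30 sterol and fatty acid synthesis genes was called, with a median difference of -0.31. With deletion 12 of them rose in uninjured neurons, where 11.7% of all genes did, and 4 in crushed neurons, where 3.38% did. In the list of arginine, polyamine, biopterin and monoamine genes 2 of 25 (8%) had a lower effect, Odc1, the ornithine decarboxylase gene (-1.28 ± 0.23 (edgeR adjusted p = 0.00721)), and Slc6a4, the serotonin transporter gene (-2.94 ± 0.71 (edgeR adjusted p = 0.0441)). Of 28 p53, apoptosis and axon survival genes 3 (10.7%) were called. These were the cell cycle inhibitor gene Cdkn1a (-2.51 ± 0.29), the stress gene Gadd45a (-2.71 ± 0.25) and Ecel1, a peptidase gene of injured neurons (-5.64 ± 0.43). Ecel1 had means of 1.61, 257, 112 and 357 CPM, with both cKO means above that of crush control. Slc2a1, Sqstm1, Cdkn1a and Gadd45a each share exon sequence with a gene on the other strand.

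**Figure D5:**
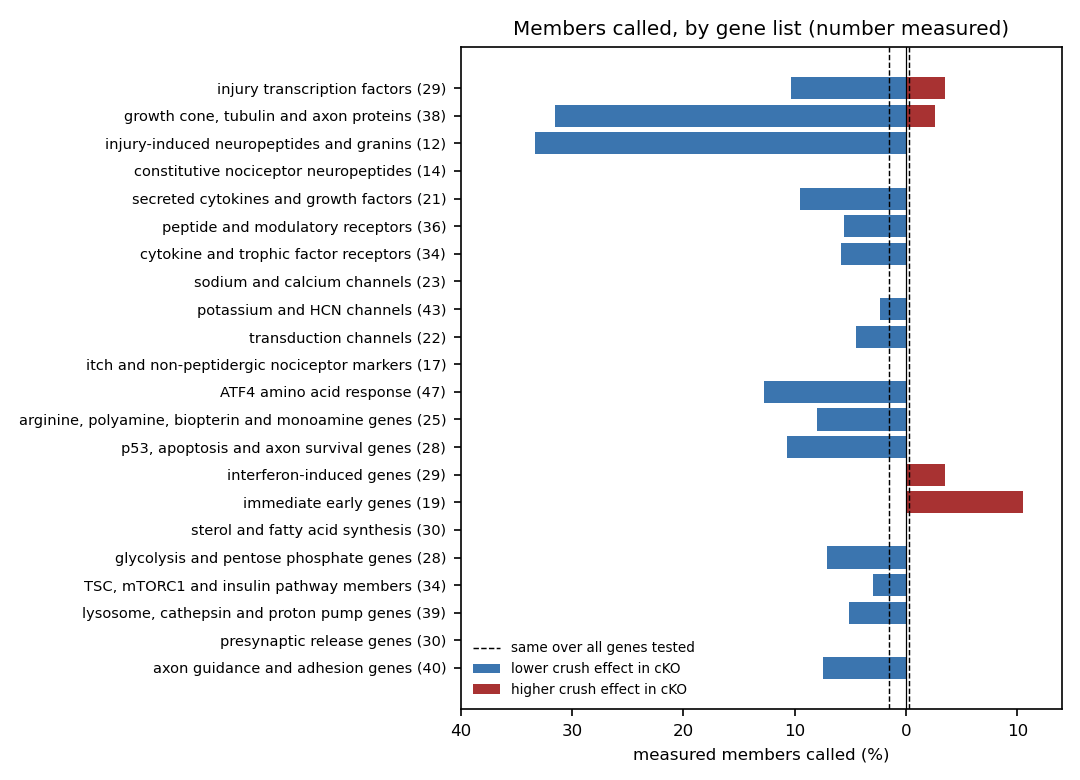
Share of measured members (%) with a lower (blue, left) or higher (red, right) crush effect in cKO neurons for 22 gene lists, with the number measured in parentheses and the share over all genes tested as dashed lines. Growth cone genes (12 of 38) and injury-induced peptides (4 of 12) extend farthest to the left.

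The 42 genes with a higher crush effect had smaller differences and less stable calls. In 15 of them (35.7%) uninjured control stood apart above, against 21.1% of the 9303 genes with a positive difference, called or not. In 8 (19.0%, against 10.6%) crush control stood apart below, and in 4 (9.52%, against 6.28%) uninjured cKO did. Another 12 (28.6%, against 51.7%) were graded. Crush cKO stood apart above in 3 (7.14%, against 7.22%), which is about as common as among all genes with a positive difference. All 4 uninjured control samples were above all other 12 samples in 16 of the 42, against 4.37% of all genes tested. Of the 42 genes, 34 fell with crush in control neurons (8.68% of all genes tested did) and 30 with deletion in uninjured neurons (9.02%). With crush in cKO neurons 8 rose (2.57%) and 0 fell (2.86%). With deletion in crushed neurons 12 rose (3.38%) and 3 fell (3.21%). Their number moved by more than 1.5 times without uninjured control replicate 2 (26) or 3 (81), uninjured cKO replicate 1 (11), 2 (19) or 4 (23), crush control replicate 1 (21), 2 (66) or 4 (23), or crush cKO replicate 3 (25) or 4 (21). When each of the 16 samples was left out in turn, 8 genes kept their call each time, Prkg2, Abcg1, Slc50a1, Slc6a15, Atp2b1, Tmem59l and, at levels under 10 CPM, Depdc7 and Tpm2. Abcg1, a cholesterol exporter gene, read 408, 606, 351 and 509.7 CPM in uninjured control, 131, 152, 112 and 122 CPM in uninjured cKO, 108, 154, 162 and 108 CPM in crush control and 97.3, 102, 113 and 74 CPM in crush cKO samples. Uninjured control lay above the rest. Its difference was 1.40 ± 0.26 (edgeR adjusted p = 0.00852). Prkg2, a cyclic GMP-dependent kinase gene, read 74.5, 59.7, 28.1 and 35.6 CPM in uninjured control, 11.6, 8.17, 12.3 and 9.18 CPM in uninjured cKO, 36.9, 22.2, 22.5 and 21.2 CPM in crush control and 27.9, 20.0, 22.3 and 29.9 CPM in crush cKO samples. Uninjured cKO was lowest and the crushed groups overlapped. Its difference was 2.22 ± 0.39 (edgeR adjusted p = 0.00537).

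Among the rest of that set, Atp2b1, a plasma membrane calcium pump gene, had means of 482, 235, 400.4 and 356 CPM (difference 0.87 ± 0.17 (edgeR adjusted p = 0.0105)). The sugar transporter gene Slc50a1 (1.03 ± 0.19 (edgeR adjusted p = 0.00903)), the neutral amino acid transporter gene Slc6a15 (0.94 ± 0.18 (edgeR adjusted p = 0.00944)) and Tmem59l (0.81 ± 0.16 (edgeR adjusted p = 0.0108)) followed. Other large positive differences kept their call in fewer of the 16 omissions. Rasd1, a small GTPase gene induced by glucocorticoid, differed by 2.74 ± 0.59 and kept its call in 11, and Spink2, a protease inhibitor gene, by 2.32 ± 0.51 and in 10. P2ry1, an ADP receptor gene, differed by 2.30 ± 0.55 and kept it in 4, and Pcp4, a calmodulin regulator gene, by 2.26 ± 0.52 and in 5. Both stood low in crush control samples, at 3.54 and 4.93 CPM, and both overlap other genes, Gm37035 and Igsf5. Mob3b (2.02 ± 0.49) kept its call in 3, the neonatal Fc receptor gene Fcgrt (1.84 ± 0.44) in 5, the p53 target gene Rprm (1.46 ± 0.31) in 11 and the glutathione transferase gene Gstt1 (1.42 ± 0.32) in 7. Other genes of the classes were B3galnt1, a glycosyltransferase gene low in uninjured cKO (1.19 ± 0.25, kept in 10), and Pdzd8, a lipid transfer protein gene (0.67 ± 0.15, kept in 9).

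Crush cKO samples stood apart above in Sdc4, a syndecan gene, and Bst2, an antiviral tether gene. Sdc4 read 451, 308, 416 and 373 CPM there, with means of 195, 193 and 164 CPM in uninjured control, uninjured cKO and crush control samples (difference 1.25 ± 0.27 (edgeR adjusted p = 0.0255), kept in 8 of 16 omissions). The 29 interferon-induced genes had a median difference of 0.44, and 5 of them had a negative one. Crush raised 8 of them in cKO neurons (2.57% of all genes tested) and lowered 1 (2.86%). In control neurons it raised 1 (11%) and lowered 2 (8.68%). Bst2 was the only one of the 29 called for the interaction (3.45%, against 1.76% of all genes tested). It read 15.8, 36.4, 15.4 and 38.5 CPM in crush cKO, 14.6, 10.0, 6.82 and 4.43 CPM in crush control, 4.12, 5.58, 3.13 and 4.98 CPM in uninjured cKO and 9.59, 8.45, 5.32 and 6.34 CPM in uninjured control samples. Crush cKO was above all the others. Its difference was 2.30 ± 0.53 (edgeR adjusted p = 0.0357), with the call kept in 6 of 16 omissions. Fos, an immediate early gene, had 205, 118, 137 and 186 CPM (difference 1.23 ± 0.28 (edgeR adjusted p = 0.0324), kept in 7). With Rasd1 it made up the 2 of 19 immediate early genes called (10.5%, against 1.76% of all genes tested).

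The smaller classes among genes with a lower effect had another shape. In Exog, a mitochondrial nuclease gene, crush control stood above the rest, with means of 16.3, 15.3, 25.2 and 11.2 CPM and a difference of -1.08 ± 0.22 (edgeR adjusted p = 0.0147). The same class held Mfhas1 (-0.56 ± 0.13 (edgeR adjusted p = 0.0385)), which kept its call in 4 of 16 omissions and overlaps Gm16793. Uninjured cKO stood above the rest in Arhgap17, a GTPase-activating protein gene (-1.08 ± 0.23 (edgeR adjusted p = 0.0255)), Rcc2, a chromosome condensation regulator gene (-0.77 ± 0.18 (edgeR adjusted p = 0.0336)), and Cct3, a chaperonin subunit gene (-0.49 ± 0.11 (edgeR adjusted p = 0.0403)). They kept their calls in 9, 6 and 2 omissions, and Arhgap17 overlaps Lcmt1 and Rcc2 a miRNA gene. Graded genes included Uap1, an enzyme gene of amino sugar synthesis (-1.57 ± 0.19 (edgeR adjusted p = 0.000193)), and Tmem88b (-2.33 ± 0.31 (edgeR adjusted p = 0.000381)). Uap1 fell with deletion in crushed neurons (-0.54 ± 0.14, edgeR adjusted p = 0.0248). Among the other genes named, Nts kept its call in 9 of 16 omissions, Tuba4a in 6, S100a11 in 4, and Itgb1, Tubb2a, Sqstm1, Slc6a4 and Fscn1 in 3 each.

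By annotation, 271 of the 293 genes with a lower and 40 of the 42 with a higher effect were protein-coding, against 78.4% of genes tested. A group mean of 10 CPM or more was reached by 226 and 34 of them, and by 9267 of all 19048 genes tested. The 17 genes with no count in uninjured control samples, as 219 of all genes tested had, included Rnf183, Bpifc and Trdc. In uninjured cKO samples 2 genes with a higher effect had none, Itga8 and Gm13387 (calls kept in 4 and 2 of 16 omissions). The log2 differences of the 17 and of these 2 depend on the prior count.

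Markers of other cells moved as follows, where 1.76% of all genes tested were called. None of 11 satellite glia markers, 11 Schwann cell markers, 10 large-fibre neuron markers and 3 erythrocyte markers was called by edgeR at the adjusted threshold. Satellite glia markers summed to 965 to 1402 CPM in uninjured control, 1029 to 1410 CPM in uninjured cKO, 957 to 1667 CPM in crush control and 1357 to 2107 CPM in crush cKO samples, the highest sums being in crush cKO. Of 10 macrophage markers 1 was called, the fractalkine receptor gene Cx3cr1 (-7.09 ± 0.72 (edgeR adjusted p = 2.77e-05)), and 8 of the 10 had a negative difference, with a median of -0.95. It read 0.0343, 0.0191, 0.0181 and 0.0602 CPM in uninjured control, 2.82, 7, 3.69 and 9.3 CPM in uninjured cKO, 10.4, 5.07, 5.59 and 6.72 CPM in crush control and 7.56, 6.83, 4.49 and 14.5 CPM in crush cKO samples. It was near 0 in uninjured control and above it in each sample of the other 3 groups, and it overlaps the antisense gene Gm33858. Csf1r, another macrophage marker, had means of 0.804, 3.71, 4.36 and 8.19 CPM. These 2 genes do not stand for the list. Over its 10 measured markers the median log2 change with deletion was 0.11 in uninjured and -0.43 in crushed neurons. The whole list summed to 6.24 to 13.0 CPM in uninjured control, 12.7 to 29.8 CPM in uninjured cKO, 18.3 to 89.6 CPM in crush control and 20.7 to 48.3 CPM in crush cKO samples.

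Of 4 measured markers of neutrophils and lymphocytes, the T cell receptor gene Trbc2 was called (-5.46 ± 0.66 (edgeR adjusted p = 0.000174)), on 4 counts in uninjured control samples. The list summed to 0.307 to 2.78 CPM in uninjured control, 6.16 to 9.85 CPM in uninjured cKO, 10.2 to 30.3 CPM in crush control and 25.9 to 38.3 CPM in crush cKO samples. S100a9 had 0 counts, Cd3d 3 and Cd3e 4 over all 16 samples. Of 11 vascular and fibroblast markers Flt1 was called (-3.71 ± 0.89 (edgeR adjusted p = 0.0451)), and it kept its call in 3 of 16 omissions. That list summed to 79.7 to 249 CPM in uninjured control, 148 to 265 CPM in uninjured cKO, 45.8 to 100.4 CPM in crush control and 149 to 437 CPM in crush cKO samples. The part of these cells in the results was not tested beyond the glial markers, with whose mean as a covariate 262 genes had a lower and 36 a higher effect, 247 and 28 of them among the 293 and 42.

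A difference of the interaction between the sexes was not detected. With 2 samples per sex and group, edgeR called 0 of 19048 genes, with 934 at an unadjusted p under 0.05 and a lowest adjusted p of 0.263, and limma-voom called 0, with 835. The 293 genes had medians of -1.93 in females and -1.84 in males and the 42 genes 1.43 and 1.38, and each of them had the same sign in both sexes. The genes were chosen on these samples together, so that count is a description.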

How the data were processed

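The authors deposited 1 table of raw read counts by Ensembl gene per library, 48 in all. The submitters' processing notes name mm10 and the tools FastQC, STAR, HTSeq and DESeq2, with no version (not given in the sources used here). Per the labels' protocols, about 100 sorted cells per library went into the SMARTer Ultra Low kit, which does not mark strand, and 50-base single reads were taken. Counts include amplification copies, since no molecular identifiers are named. Lines of alignments to several places (37.5 to 46.1% of each file) and outside genes (5.92 to 19.4%) stayed out of library sizes, so genes with near-identical copies have uncertain counts. Of 47643 IDs 47224 matched a symbol in GENCODE M21.

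Counts of the 3 aliquots, technical replicates per the labels, were summed (n = 4 per group). A model of 4 group means was fitted in edgeR 4.0.16 (R 4.3.3) after TMM scaling, with the 19048 genes that passed filterByExpr. Its quasi-likelihood F test was two-sided, p-values were adjusted over all genes by Benjamini-Hochberg, and the threshold was 0.05. Log2 differences carry ± SE, the size divided by the square root of F. The procedure was tested on simulated counts, in which group means were equal except for a change in the crush cKO group of some genes. Genes low in uninjured control alone, or changed at a few counts, were not simulated. The simulation therefore does not bear on such calls. Named genes were Tsc2, the 10 most negative and 10 most positive called differences with a group mean of at least 10 CPM, the 3 smallest p of each class and up to 3 called members of each of 30 lists. Gal, Atf3, Jun, Sox11 and Gap43 were taken as values. Other genes of lists named in the text, and genes named beside promoters, floors or the threshold, were chosen after their values were seen. The design and the lists were chosen with earlier results of these data known. Alternatives were other scalings, filters and tools (DESeq2 1.42.0 and limma 3.58.1), single aliquots or samples left out, replicate blocks, sex and glial markers as terms, stricter thresholds and the linear scale.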

Additional observations from a re-analysis of the deposited data

Results flagged for a closer look

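In 75 named genes and 4 groups, 300 sets of 4 samples were examined for a sample whose gap to the nearest of the others, as a share of the group's range, exceeded Dixon's critical value for 4 samples, and 25 had one. Chance gives about 1 in 20 groups. A high sample was seen for 4930438A08Rik in uninjured cKO replicate 3 (16.1 CPM), Slc15a3 in uninjured control replicate 4 (0.0602 CPM), Kcnk16 and Gm29374 in uninjured control replicate 2 (0.0382 and 0.706 CPM) and Slc6a4 in uninjured control replicate 3 (1.32 CPM). The Slc15a3 and Kcnk16 levels are those of a few counts. Crush control replicate 1 was high for Ifi202b (92.3 CPM) and Prkg2 (36.9 CPM), crush control replicate 2 for Rasd1 (20.9 CPM) and crush cKO replicate 4 for Gpr151 (417 CPM) and Flrt3 (594 CPM). Slc6a15 was high in uninjured cKO replicate 1 (156 CPM) and in crush cKO replicate 1 (201 CPM), and Fcgrt in uninjured control replicate 4 (41.0 CPM).

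A low sample was seen for Rin1 and Cct3 in crush cKO replicate 3 (8.69 and 271 CPM), Sema6a in crush cKO replicate 1 (175 CPM), Spink2 in crush cKO replicate 2 (12.5 CPM) and Mfhas1 in crush cKO replicate 4 (62.2 CPM). Crush control replicate 2 was low for Chac1 (26.9 CPM) and Odc1 (23.9 CPM), and crush control replicate 4 for Pdzd8 (149 CPM). Cd63 (50.6 CPM) and Fos (119 CPM) were low in uninjured control replicate 4, and Rprm (6.87 CPM) and Rasd1 (3.05 CPM) in uninjured cKO replicate 1. Of the 25 samples, 4 were uninjured control replicate 4.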

How the results depend on the processing

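The 293 lower and 42 higher calls became 543 and 200 (743 in all) with DESeq2, 495 and 54 (549) with limma-voom on all 48 libraries, 133 and 8 (141) without aliquot A, 172 and 15 (187) without aliquot C, and 149 and 5 (154) at an adjusted p under 0.01. The cause was not tested. Leaving out 1 sample gave 191 to 404 lower, 11 to 81 higher and 202 to 485 calls in all, the fewest without uninjured cKO replicate 1 and the most without uninjured control replicate 3. Of the 293 and 42 genes, 70 and 0 were called under all 29 refits. Other scaling, the other filters, limma-voom on the sums, the sums without aliquot B, sex and glial terms kept all 3 counts within 1.5 times. The median of all genes moved by over 0.1 only with 48 libraries, to -0.12. On the linear scale the difference was positive for Inhbb (40.9 ± 6.46 CPM, SE) and Slc6a4 (69.5 ± 16.5), and positive but within 2 SE of 0 for Ifi202b (17.8 ± 25.8), Trbc2 (5.71 ± 3.27), Sprr1a (160.4 ± 238), Flt1 (9.47 ± 6.55) and Slc2a1 (29.3 ± 18.0). Mob3b changed sign without aliquot A (-0.0719 on the log2 scale). Tsc2 and the 0 calls for a difference between the sexes kept their side of the threshold in every alternative run. Depth limits the genes at a few counts in uninjured control samples, whose differences depend on the prior count.

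With a replicate block on the sample number within genotype, 244 lower and 44 higher calls were made, 204 and 22 of them among the 293 and 42, and with the number across all groups 261 and 37, 239 and 28 of them shared. Same-numbered samples correlated at 0.041 to 0.152 in their deviations from group means, and 3 of 8 pairs exceeded 0.1. Samples of different numbers correlated at -0.082 to 0.032, below every same-numbered pair, and in 8 of 8 pairs each sample correlated best with its own number. The labels do not say whether a number marks both sides of 1 animal. With neither such a label nor a correlation over 0.1, the cut-off chosen here, in every pair, the numbers were not used as pairs. Whether they are pairs is not known. If they are, the main fit leaves the pairing out.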
